A study of Mus musculus with 8 samples.

Results

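A set of 10 genes of spleen macrophages, counted in dendritic cells (DC) sorted from mouse spleen, is described here: Cd5l, C1qa, C1qb, C1qc, Vcam1, Spic, Hmox1, Axl, Mertk and Marco. They were taken by name from the table of raw read counts, as the 10 of its 27179 gene IDs that map to these symbols. The rule itself uses no measured value, but the symbols were chosen with earlier results of these data known. All 10 passed the low-count filter that left 14238 genes for testing, and each had enough reads in the cDC libraries alone to pass, so that passing says nothing about pDC.

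The data are 8 RNA-seq libraries in 4 groups of 2 biological replicates: plasmacytoid DC (pDC) and conventional DC (cDC), each from mice given panobinostat, an inhibitor of histone deacetylases, or its vehicle for 2 days. Every mouse was C57BL/6 and carried leukemia, so no group shows spleen without leukemia, and each library pools the cells of 3 to 6 mice, so that the spread between single animals is not seen. The series asks what the drug does to pDC. Libraries held 13124861 to 20657429 counted reads, and with 2 pools a group the p-values rest on the spread between pools.

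Tissue macrophages of the spleen fall into kinds that sit in different places. Red pulp macrophages take up aged red blood cells and recycle their iron, under the transcription factor Spi-C, while marginal zone macrophages catch particles from the blood. Both clear dying cells, for which C1q, AXL, MERTK and CD5L serve as opsonins or receptors. pDC are known for type I interferon and cDC for presenting antigen to T cells. Some splenic DC are known to express Axl as well.

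The protocol text of the labels speaks of leukemia cells as the cells sorted, while titles and cell type fields give pDC and cDC. Of 12 pDC markers, 11 were higher in pDC than in cDC under vehicle, and 0 were lower, by edgeR's quasi-likelihood test at an adjusted p under 0.05. Of 14 cDC markers, 5 were lower in pDC and 2 higher, where 9.73% of all genes were called. Other tissue macrophage genes, of which 30 were listed, ran from near 0 to high counts. Trem2 had at most 4 reads in any library and Siglec1, a receptor of metallophilic macrophages, at most 15, while Adgre1, which encodes F4/80, reached 4285 reads, Csf1r, the receptor that macrophages need to survive, 4386, and Timd4, a receptor for dying cells, 792. The highest counts of Adgre1, Csf1r and Timd4 were in cDC libraries, and pDC libraries had at most 100, 214 and 15 reads of them. Trem2, Siglec1, Adgre1, Csf1r and Timd4 were picked out after their values were seen.

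The library of pDC panobinostat replicate 2 stood apart. It held 1 read over all 10 genes together, from Axl, and 9 of the 10 genes were at 0. It was the smallest library and had reads for 10745 genes, against 14927 in the other pDC panobinostat library and 16109 and 19950 in the pDC vehicle libraries. Zeros were common in it at this depth of expression: of 4474 genes whose mean over the other 3 pDC libraries was between 9.33 and 176 reads, 51.6% were at 0 there. With each pDC library in turn set against the mean of its other 3, in the same range of reads, the share at 0 was 0.937% and 0.664% in the pDC vehicle libraries and 3.43% in pDC panobinostat replicate 1. The part of this loss in the low values of the 10 genes was not tested. Results are therefore given with all 8 libraries and again with that library left out.

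The 3 chains of C1q, the recognition molecule of the classical complement pathway, lie side by side on the minus strand of mouse chromosome 4 within 18.7 kb (GRCm38: C1qb at chr4:136880126-136886200, C1qc at chr4:136889801-136892936, C1qa at chr4:136895916-136898844). No other annotated RefSeq gene overlaps any of the 10 genes, so reads of a neighbour on the other strand do not add to them. The 250 bases before the start are shown for C1qb and C1qc because, of the 7 members with an entry in the RefSeq promoter table (GRCm38.p6), these were the only ones in which any of 6 searched motifs was found. Capitals mark the match on either strand: in C1qb the antioxidant response core TGACNNNGC, read on the opposite strand 103 to 95 bases before the start, and in C1qc the PU.1 and Spi-C box GAGGAAGT, read on the opposite strand 195 to 188 bases before the start. Both sequences run 5′ to 3′ along the gene, from chr4:136886201-136886450 and chr4:136892915-136893164, minus strand. The start used is that of the promoter table, which for C1qc lies 22 bases inside the gene model given above.
C1qb: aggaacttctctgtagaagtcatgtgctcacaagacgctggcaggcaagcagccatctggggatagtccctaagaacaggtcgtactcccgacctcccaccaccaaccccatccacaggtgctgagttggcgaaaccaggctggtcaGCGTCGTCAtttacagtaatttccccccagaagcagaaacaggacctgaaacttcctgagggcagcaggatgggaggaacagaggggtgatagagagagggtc
C1qc: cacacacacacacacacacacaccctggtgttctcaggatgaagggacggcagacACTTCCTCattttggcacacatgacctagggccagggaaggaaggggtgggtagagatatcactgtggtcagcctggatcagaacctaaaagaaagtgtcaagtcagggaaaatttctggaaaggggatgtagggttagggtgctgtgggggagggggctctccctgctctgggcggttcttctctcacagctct
Of 32851 promoter windows of this length, 10.2% held TGACNNNGC and 2.44% held GAGGAAGT. The other motifs were TGAGTCA (AP-1, in 4.46% of windows), TGCTGAC (a Maf site, 3.81%), the interferon response element (2.98%) and the E-box CACGTG (6.02%). These 4 did not match in the 7 windows, and a match is no evidence of binding.

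In levels, C1qa stood at 39.4 and 24.3 CPM (read counts relative to library size, scaled by the trimmed mean of M values) in the 2 cDC vehicle libraries and at 27.1 and 9.78 in the cDC panobinostat libraries. In pDC it stood at 4.09 and 0.919 CPM under vehicle and at 6.00 and 0 CPM under panobinostat, with every pDC library below every cDC library. C1qb was at 43.9 and 21.7 CPM in cDC under vehicle, at 27.4 and 8.96 CPM in cDC under panobinostat, at 2.72 and 0.811 CPM in pDC under vehicle and at 2.63 and 0 CPM in pDC under panobinostat. Both chains thus lay lower in every pDC library than in any cDC library, and the lower cDC value was in replicate 2 under either treatment.

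C1qc was at 33.5 and 27.9 CPM in cDC under vehicle and 37.2 and 4.07 CPM under panobinostat. Its cDC panobinostat replicates differed 9.14-fold, against 2.77-fold for C1qa and 3.06-fold for C1qb. C1qc was nearly absent from pDC under vehicle, at 0.101 and 0.487 CPM, which is 2 and 9 reads, and stood at 1.69 and 0 CPM under panobinostat. C1q needs all 3 chains, which cells that make it express together, and the share of C1qc among C1q reads can be compared between libraries. That share was 28.7% (95% Wilson interval 26.9 to 30.5, 2507 reads) and 37.8% (35.5 to 40.2, 1600 reads) in cDC under vehicle. In pDC vehicle replicate 1 it was 1.46% (0.401 to 5.17, 137 reads), and in pDC vehicle replicate 2 it was 22.0% (12 to 36.7, 41 reads). Replicate 1 of pDC vehicle thus had C1qa and C1qb reads almost without C1qc, while the interval of replicate 2 met that of cDC vehicle replicate 2. The share was 16.3% (11.9 to 22.0, 208 reads) in pDC panobinostat replicate 1, 40.6% (38.4 to 42.8, 1903 reads) in cDC panobinostat replicate 1 and 17.9% (14.5 to 21.8, 420 reads) in cDC panobinostat replicate 2. These intervals cover counting error only, since reads made by amplification are not independent molecules, and the cDC libraries already differed among themselves by more than counting error.

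**Figure D1:**
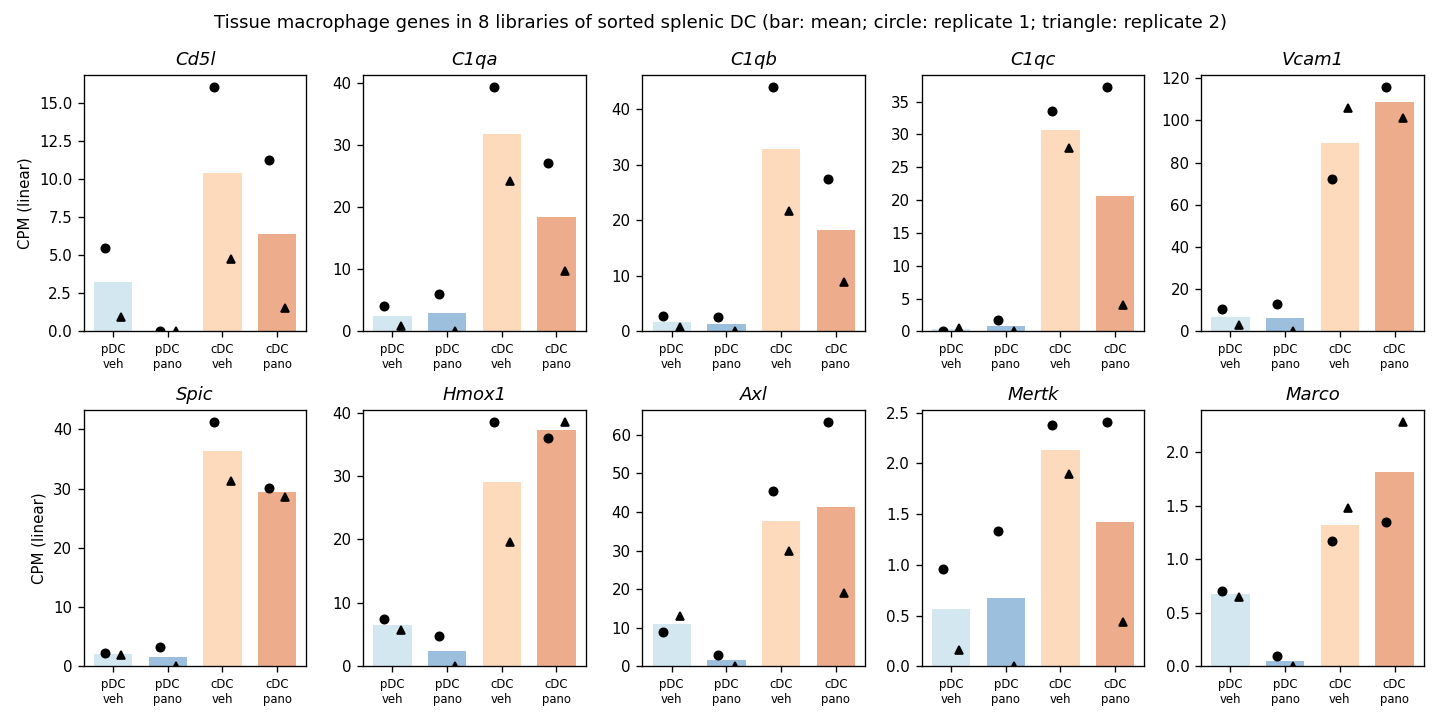
Level of each of the 10 genes in CPM on a linear axis, for the 4 groups, with circles for replicate 1, triangles for replicate 2 and bars for the mean. For C1qa, C1qb, C1qc, Vcam1, Spic, Hmox1, Axl and Marco the cDC points lie above the pDC points, and the triangle of pDC panobinostat is at or next to 0 in every panel.

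Spic encodes Spi-C, the transcription factor that red pulp macrophages need, and lies on chromosome 10 (chr10:88675269-88683023, minus strand). Its 4 cDC libraries were closer together in ratio than those of any other member, at 41.3 and 31.3 CPM under vehicle and 30.2 and 28.5 CPM under panobinostat. In pDC it was at 2.169 and 1.838 CPM under vehicle and 3.27 and 0 CPM under panobinostat. The pDC values lay far below those of cDC, and the cDC panobinostat libraries lay just below the cDC vehicle libraries. Spic was the only member whose cDC libraries did not overlap between treatments.

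Hmox1, for heme oxygenase 1, which breaks heme down and releases its iron, was at 38.5 and 19.6 CPM in cDC under vehicle and at 36.0 and 38.6 CPM under panobinostat. In pDC it was at 7.41 and 5.68 CPM under vehicle and at 4.76 and 0 CPM under panobinostat, the panobinostat libraries lying below both vehicle libraries. Vcam1, for the adhesion molecule VCAM1 by which red pulp macrophages hold cells that carry integrin α4β1, was at 72.2 and 106 CPM in cDC under vehicle and 116 and 101 CPM under panobinostat. Its pDC values were 10.8 and 2.87 CPM under vehicle and 12.8 and 0 CPM under panobinostat. Treatments overlapped for Vcam1 in both cell types.

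Axl and Mertk encode receptor tyrosine kinases of the TAM family (TYRO3, AXL, MERTK), which bind dying cells through GAS6 and protein S. Axl was at 45.3 and 29.8 CPM in cDC under vehicle and at 63.4 and 19.1 CPM under panobinostat, the panobinostat libraries lying on either side of the vehicle ones. In pDC it was at 8.98 and 12.98 CPM under vehicle and at 2.92 and 0.0929 CPM under panobinostat, with both treated libraries below both vehicle libraries. Mertk was at 2.38 and 1.89 CPM in cDC under vehicle, 2.41 and 0.435 CPM in cDC under panobinostat, 0.958 and 0.162 CPM in pDC under vehicle and 1.34 and 0 CPM in pDC under panobinostat. Mertk was low everywhere, with at most 51 reads in a library, and its pDC and cDC panobinostat libraries overlapped.

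Cd5l encodes AIM, a secreted protein of the scavenger receptor cysteine-rich family made by tissue macrophages. Its replicates lay wide apart: 16.03 and 4.76 CPM in cDC under vehicle, 11.2 and 1.52 CPM in cDC under panobinostat, and 5.45 and 0.973 CPM in pDC under vehicle. Neither pDC panobinostat library had a read of Cd5l, against 108 and 18 reads in the pDC vehicle libraries. Marco, a scavenger receptor of marginal zone macrophages, was at 1.16 and 1.48 CPM in cDC under vehicle and at 1.35 and 2.28 CPM under panobinostat. In pDC Marco was at 0.706 and 0.649 CPM under vehicle, from 14 and 12 reads, and at 0.0992 and 0 CPM under panobinostat, from 2 and 0 reads. Marco had close replicates, yet at these counts a change of a few reads moves its value.

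Per kilobase of exon, which allows genes to be ordered, C1qa (30.6 CPM per kb) and C1qb (30.1) led in cDC under vehicle and overlapped each other, and C1qb also overlapped Hmox1 (16.6). C1qc (15.9) overlapped Hmox1 and stood apart from Vcam1 (10.04), which overlapped Spic (9.44). Axl (7.46) and Cd5l (5.10) came next and overlapped, and Marco (0.69) and Mertk (0.49) closed the order, each apart from its neighbour above. In cDC under panobinostat Hmox1 led at 21.3 CPM per kb and Mertk was again last at 0.33. In pDC under vehicle the order ran from Hmox1 (3.74 CPM per kb) and C1qa (2.41) to C1qc (0.15) and Mertk (0.13), with only Spic against Marco and Marco against C1qc apart among neighbours. In pDC under panobinostat no neighbours could be separated.

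The cell types were first compared under vehicle. Mean levels in pDC lay below those in cDC for 10 of 10 members, from 0.956% of the cDC mean for C1qc, 5.39% for C1qb, 5.52% for Spic, 7.69% for Vcam1 and 7.86% for C1qa to 22.5% for Hmox1, 26.3% for Mertk, 29.2% for Axl, 30.9% for Cd5l and 51.3% for Marco. For 9 members both pDC libraries lay below both cDC libraries, and Cd5l overlapped. Of all genes tested, 35.5% had libraries apart in that direction. The 14 cDC markers ranged more widely, from 0.182% of the cDC mean for Clec4a4 to 3897% for Clec10a with a median of 57.5%, and the median over the members was 15.2%. In bulk RNA, fewer cells of a type and less RNA per cell cannot be told apart.

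**Figure D2:**
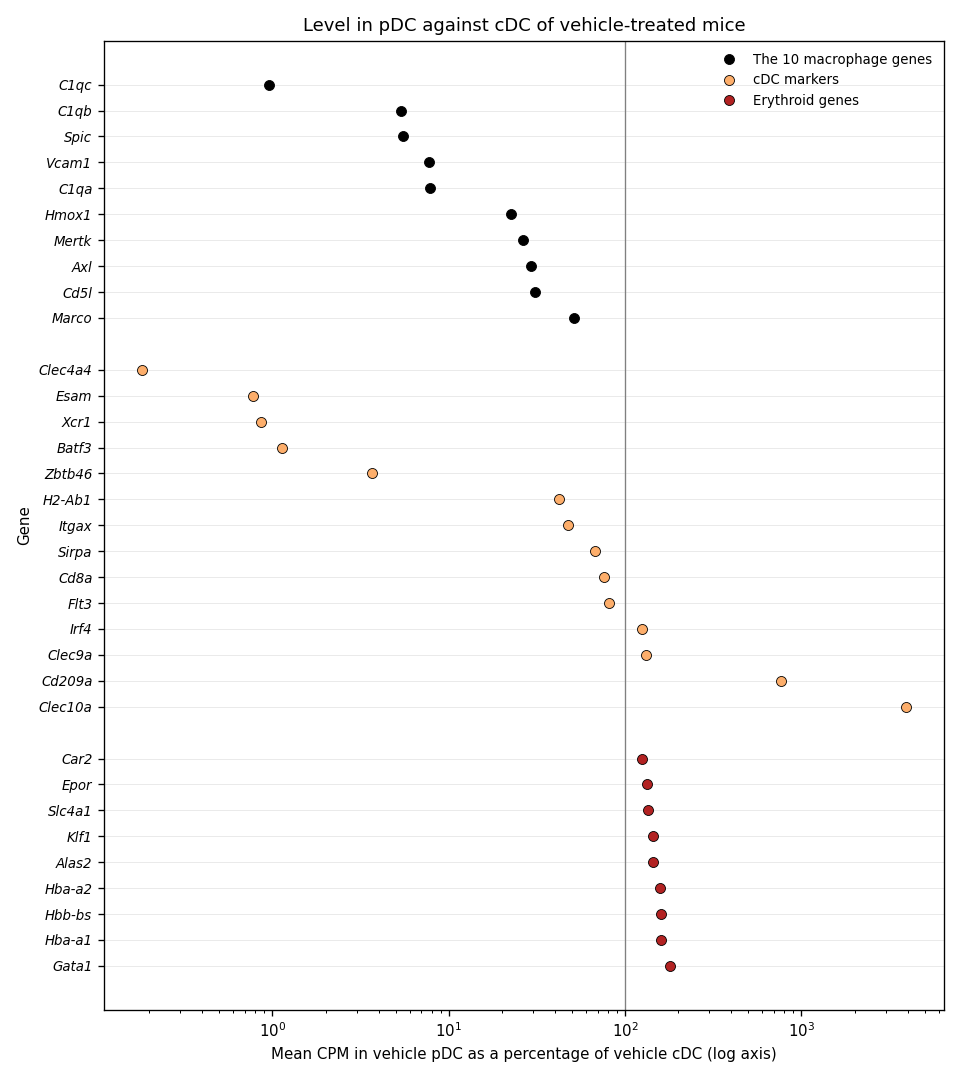
Mean CPM in pDC as a percent of the mean in cDC under vehicle, on a log axis, for the 10 macrophage genes, 14 cDC markers and 9 erythroid genes, each point the ratio of means of 2 libraries. The macrophage genes spread from 0.956% for C1qc to 51.3% for Marco, while all erythroid genes lie above 100%.

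With all 8 libraries, edgeR's quasi-likelihood test called 0 of 10 members lower in pDC under vehicle, where 4.71% of all genes were called lower and 9.73% were called in all. At an unadjusted p under 0.05 there were 3, namely Spic, C1qb and C1qc, and 24.5% of all genes. The log2 difference of C1qc was -6.69 ± 2.04 (SE, adjusted p = 0.1), that of C1qb was -4.21 ± 1.71 (adjusted p = 0.197) and that of Spic was -4.17 ± 1.53 (adjusted p = 0.155). DESeq2 called Spic, C1qb and C1qc, among 20.1% of all genes, and limma-voom called C1qc, among 13.9%. The median over the members was -2.91 on the log2 scale, against 0.02 over all genes.

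The errors depended on the pDC panobinostat library that stood apart, although it is in neither group of this comparison: the dispersion of each gene is estimated over all 4 groups. Without it, 6 members were called lower in pDC under vehicle by edgeR's quasi-likelihood test, among 19.6% of all genes called lower and 36.1% called in all. These were Spic (-4.20 ± 0.25 on the log2 scale, adjusted p = 0.000208), Vcam1 (-3.72 ± 0.58, adjusted p = 0.00501), C1qb (-4.23 ± 0.82, adjusted p = 0.0105), C1qc (-6.72 ± 1.31, adjusted p = 0.0106), C1qa (-3.69 ± 0.81, adjusted p = 0.0157) and Hmox1 (-2.18 ± 0.36, adjusted p = 0.00606). Axl, at -1.80 ± 0.59, did not pass (adjusted p = 0.0582), nor did Marco, Mertk and Cd5l. With replicate number as a block in addition, Axl (adjusted p = 0.048), Mertk (adjusted p = 0.0467) and Cd5l (adjusted p = 0.00864) were called as well, 9 members in all among 43.2% of genes. That alternative was added after the data had been seen. The same 6 members were called when pDC panobinostat replicate 1 was left out instead, among 37.2% of all genes, and 0 when any of the other 6 libraries was, where 1.92% to 3.68% of all genes were called. Over the 8 fits that leave out 1 library, the log2 difference of Spic ran from -4.36 to -3.95, that of C1qc from -8.20 to -5.95, that of Mertk from -3.66 to -1.19 and that of Cd5l from -3.40 to -0.56. All 10 members lay below 0 in each of those fits.

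Under panobinostat, 2 members were lower in pDC than in cDC by edgeR's quasi-likelihood test with all 8 libraries, among 10.2% of all genes called lower and 18.0% called in all. Marco differed by -4.80 ± 1.09 on the log2 scale (adjusted p = 0.033). Cd5l had 0 reads in both pDC libraries against 261 reads in cDC (adjusted p = 0.0459). That is 68.8-fold lower at a floor of 3 reads pooled over the group. The pooling counts pDC panobinostat replicate 2 at its full depth, so this fold is not a lower bound. At an unadjusted p under 0.05 there were 6 members, against 34.8% of all genes. Axl, at -4.72 ± 1.37, had an adjusted p of 0.0607. For 9 members both pDC libraries lay below both cDC libraries, against 38.0% of all genes, and Mertk overlapped.

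Without pDC panobinostat replicate 2, 5 members were lower in pDC under panobinostat by edgeR's quasi-likelihood test, among 20.9% of genes called lower and 36.1% called in all: Marco (-4.16 ± 0.81, adjusted p = 0.0118), Spic (-3.22 ± 0.31, adjusted p = 0.00129), Vcam1 (-3.14 ± 0.75, adjusted p = 0.0228), Axl (-3.88 ± 0.88, adjusted p = 0.0193) and Hmox1 (-3.03 ± 0.50, adjusted p = 0.00663). Cd5l then had an adjusted p of 0.059. That fit has 1 library in the pDC panobinostat group, whose spread is taken to be that of the other groups. With replicate number as a block and all 8 libraries, edgeR's quasi-likelihood test called Cd5l (adjusted p = 0.0214), among 16.2% of all genes, and not Marco (adjusted p = 0.0515). Without pDC panobinostat replicate 1, 8 members were called among 65.9% of all genes, and without any of the 6 remaining libraries 0 were, where 2.30% to 8.98% of all genes were called, so that both calls with all libraries were lost each time.

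In the pDC panobinostat library that kept these genes, the level relative to the cDC panobinostat mean was 94.1% for Mertk, 32.5% for C1qa, 14.4% for C1qb, 12.8% for Hmox1, 11.8% for Vcam1, 11.2% for Spic, 8.16% for C1qc, 7.09% for Axl, 5.46% for Marco and 0 for Cd5l. Axl, Cd5l and Marco, for which pDC stood closest to cDC under vehicle, were thus the lowest here, but with 1 library no spread can be given for this order.

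The effect of panobinostat was then taken within each cell type. In pDC, 0 of 10 members changed by edgeR's quasi-likelihood test, where 0.0913% of all genes were called. Marco and Cd5l were the 2 members with an unadjusted p under 0.05, against 14.9% of all genes. DESeq2 called Cd5l (adjusted p = 0.00396), among 6.36% of all genes, and limma-voom 0 members. By edgeR's quasi-likelihood test, Marco differed by -3.38 ± 1.07 on the log2 scale (adjusted p = 0.249). Cd5l was 33.9-fold lower at a floor of 3 reads pooled over both treated libraries (adjusted p = 0.219). The pooling counts pDC panobinostat replicate 2 at its full depth, so this fold is not a lower bound. In replicate 1 alone 3 reads are 0.149 CPM, against 5.45 and 0.973 CPM under vehicle. Axl differed by -2.81 ± 1.26 (adjusted p = 0.36) and Hmox1 by -1.43 ± 1.47 (adjusted p = 0.667).

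For Marco, Cd5l, Axl and Hmox1 both treated pDC libraries lay below both vehicle libraries, as did those of 26.5% of all genes. The other 6 members overlapped, the replicate with reads lying above both vehicle libraries for C1qa, C1qc, Vcam1, Spic and Mertk and the other replicate at 0. Their log2 differences were 0.28 ± 1.69 for C1qa, 1.57 ± 1.73 for C1qc, -0.39 ± 1.54 for C1qb, -0.07 ± 1.53 for Vcam1, -0.25 ± 1.37 for Spic and 0.31 ± 1.66 for Mertk. Each of these errors was larger than the difference itself. The median over the members was -0.32 and that over all genes -0.14.

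Without the second pDC panobinostat library, again 0 members changed in pDC by edgeR's quasi-likelihood test, among 4.78% of genes called. Marco was at -2.75 ± 0.81 (adjusted p = 0.114), Axl at -1.96 ± 0.81 (adjusted p = 0.218) and Hmox1 at -0.51 ± 0.45 (adjusted p = 0.549). Spic, Vcam1 and C1qb moved from below 0 to above it, at 0.65 ± 0.28, 0.86 ± 0.65 and 0.52 ± 0.95, and did not pass. Over the 18 alternative fits, the log2 difference of Cd5l in pDC ran from -9.72 to -6.115. They include the fit without that library and with replicate number as a block, an alternative added after the data had been seen. Cd5l had 0 reads in both pDC panobinostat libraries. The size of its log2 values therefore depends on how each fit treats 0 and is not a measured fold. Without the first pDC panobinostat library, 5 members were called lower by edgeR's quasi-likelihood test, namely Marco, Spic, Vcam1, Axl and Hmox1, among 55.3% of all genes, with only the library that stood apart left in the group. The calls in pDC thus turned on which panobinostat library was kept.

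**Figure D3:**
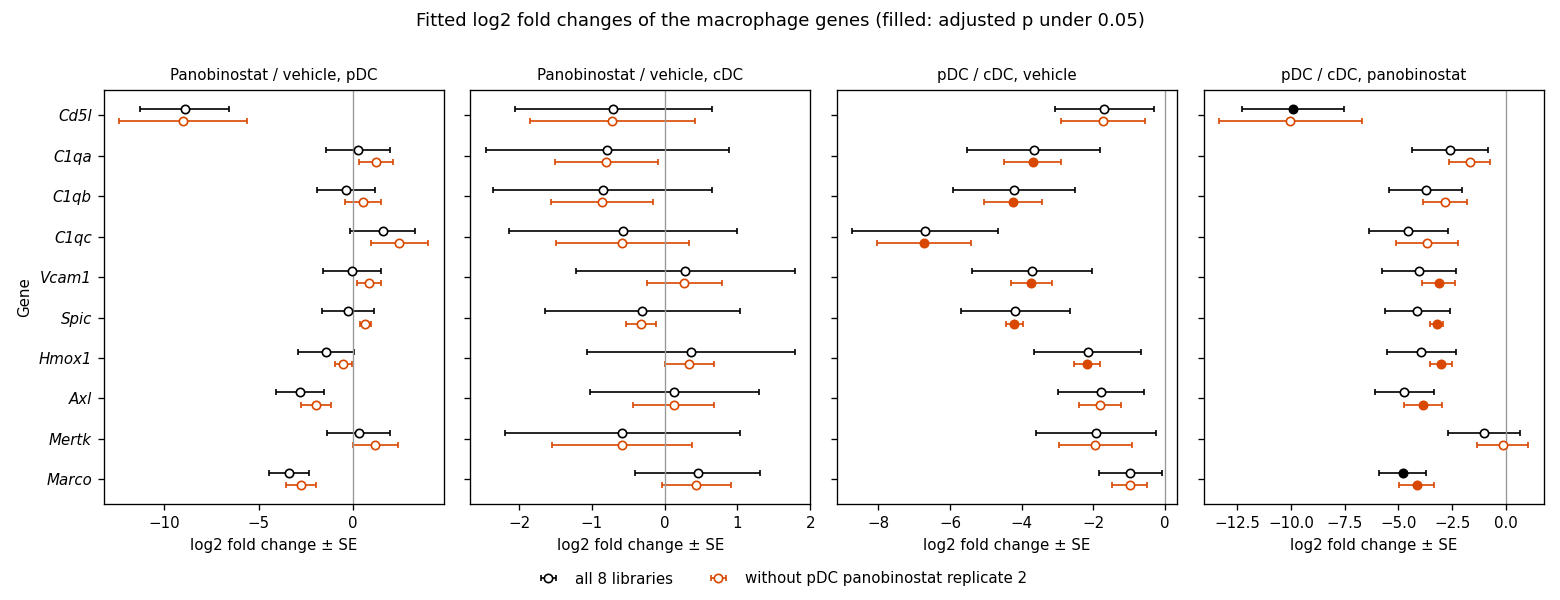
Log2 difference of each member with its standard error in 4 panels, one per comparison, black for all 8 libraries and orange without pDC panobinostat replicate 2, filled where the adjusted p is under 0.05. In the panels of pDC against cDC the points lie below 0, and in those of panobinostat against vehicle most black intervals cross 0. In pDC the orange intervals of Marco, Cd5l, Axl and Hmox1 lie below 0 and those of Spic and Vcam1 above it.

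In cDC, 0 members changed with panobinostat by edgeR's quasi-likelihood test, 0 had an unadjusted p under 0.05, and 0.0% of all genes were called. At an unadjusted p under 0.05 stood 1.45% of all genes. DESeq2 called 15 genes and 0 members, limma-voom called 0 genes. Log2 differences ran from -0.85 ± 1.51 for C1qb, -0.79 ± 1.67 for C1qa, -0.70 ± 1.35 for Cd5l, -0.58 ± 1.62 for Mertk and -0.57 ± 1.57 for C1qc to 0.14 ± 1.16 for Axl, 0.28 ± 1.504 for Vcam1, 0.36 ± 1.43 for Hmox1 and 0.46 ± 0.86 for Marco. Spic, at -0.31 ± 1.34, was the member whose treated libraries lay below the vehicle libraries, as did those of 18.8% of all genes. Without pDC panobinostat replicate 2 the error of Spic was 0.21 and its adjusted p was 0.91 by edgeR's quasi-likelihood test. The intervals are too wide to show that cDC levels were alike.

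The difference between the drug's effects in pDC and cDC was tested as an interaction, and 0 members passed by edgeR's quasi-likelihood test, where 0.00702% of all genes did. Marco and Cd5l had an unadjusted p under 0.05, as did 7.77% of all genes. DESeq2 and limma-voom called 0 members. Marco differed by -3.84 ± 1.36 (adjusted p = 0.554) and Axl by -2.95 ± 1.69 (adjusted p = 0.764). Without pDC panobinostat replicate 2, 0 members passed among 1.85% of genes called, and with the block in addition Cd5l passed (adjusted p = 0.0283). Without pDC panobinostat replicate 1, 5 members passed, among 43.4% of all genes. Each of these fits leaves 1 library in the pDC panobinostat group. The fit with the block was added after the data had been seen. It also called a larger share of all genes than the same fit without the block, so the call of Cd5l is not particular to the members. With all 8 libraries an unequal drug effect on these genes was not detectable.

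Replicates differed in a way the groups do not explain. In pDC vehicle, cDC vehicle and cDC panobinostat, 8 of 10 members were higher in replicate 1, where 48.9%, 47.2% and 46.8% of all tested genes were. In pDC panobinostat 9 of 10 were, against 56.1% of all tested genes. Replicate 2 there held 1 read over all members, so that count says nothing about replicate number. Cd5l was 5.60-fold higher in replicate 1 in pDC vehicle, 3.37-fold in cDC vehicle and 7.39-fold in cDC panobinostat. C1qa was 4.45-fold, 1.62-fold and 2.77-fold higher in the same order. Spic stayed near 1 in these 3 groups, at 1.18, 1.32 and 1.06. Marco, at 1.09, 0.79 and 0.59, did not share the pattern. Other members also lay below 1 in 1 group: C1qc (0.207, from 2 and 9 reads) and Axl (0.692) in pDC vehicle, Vcam1 (0.681) in cDC vehicle and Hmox1 (0.934) in cDC panobinostat.

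**Figure D4:**
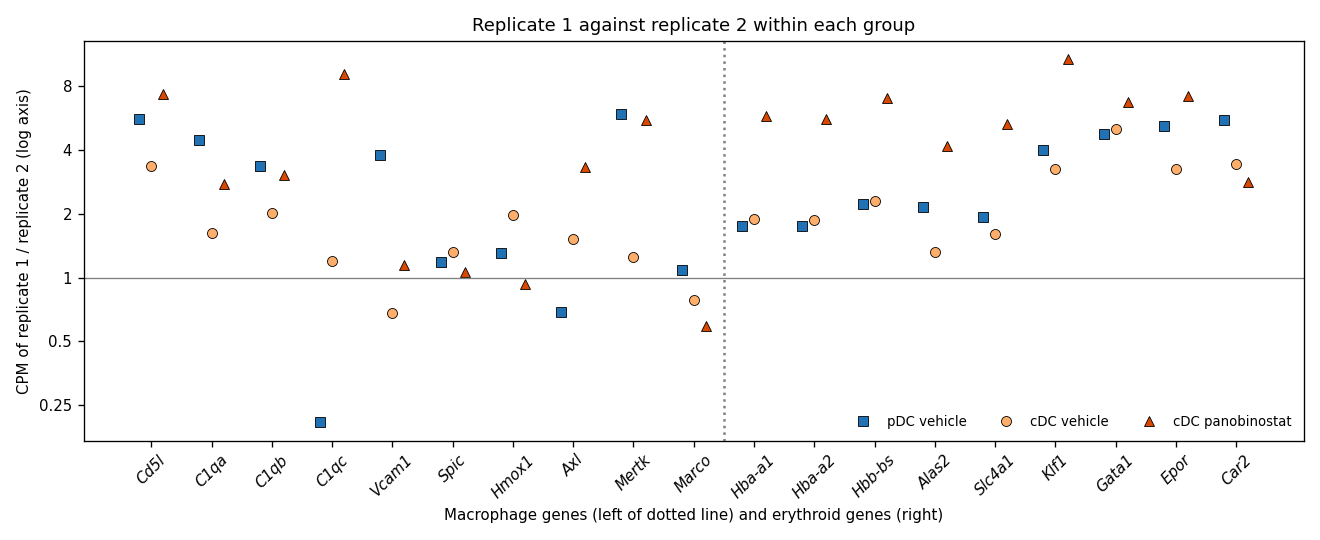
Ratio of replicate 1 to replicate 2 in CPM, on a log axis, for the 10 members and 9 erythroid genes in 3 groups; pDC panobinostat is left out because replicate 2 has 0 reads for 9 members. All erythroid genes lie above 1, and 8 of the 10 members do in each group.

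Of the 30 other tissue macrophage genes listed, 16 were higher in replicate 1 in pDC vehicle and 17 in pDC panobinostat. In cDC vehicle 20 were, and in cDC panobinostat 18. The ratio of their summed CPM, replicate 1 to replicate 2, was 0.989, 1.09, 0.785 and 0.853 in the same order. Erythroid genes moved with replicate number in every group. Their summed level over 9 genes (Hba-a1, Alas2, Klf1 and others) was 2497 CPM in replicate 1 and 1244 in replicate 2 of pDC vehicle, 7099 and 2449 in pDC panobinostat, 1642 and 792 in cDC vehicle, and 2092 and 399 in cDC panobinostat, with 9 of 9 genes higher in replicate 1 each time. Between cell types they went against the macrophage genes: their median log2 difference between pDC and cDC under vehicle was 0.53, all 9 above 0, where the members' was -2.91. None of the 9 was called in any comparison. B cell markers were lower in replicate 1 in every group, at 123 against 202 CPM in pDC vehicle and 150 against 510 CPM in cDC vehicle. Their part in the replicate differences of the members was not tested.

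Further genes of the same kinds were listed apart. Of 30 other tissue macrophage genes 27 were tested, and under vehicle 6 were lower and 3 higher in pDC by edgeR's quasi-likelihood test, and 15 lower and 3 higher of 29 tested without pDC panobinostat replicate 2. Their median was -2.64 with all libraries, against 0.02 over all genes. Of all genes, 9.73% were called under vehicle with all libraries, 4.71% as lower. Without that library these shares were 36.1% and 19.6%, so the rise in calls was not particular to the list. Slc11a1, an iron and manganese transporter of the phagosome, was at 1.77 and 1.08 CPM in pDC and 73.6 and 67.9 CPM in cDC under vehicle (-5.63 ± 0.45, adjusted p = 0.00335). Lyz2, for lysozyme, was at 16.2 and 23.9 CPM in pDC and 439 and 819 in cDC (-4.97 ± 0.68, adjusted p = 0.00927). Treml4, a receptor of macrophages and cDC in the spleen, was at 2.02 and 1.46 CPM in pDC and 136 and 218 in cDC (-6.66 ± 0.91, adjusted p = 0.00936).

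The 3 listed genes higher in pDC were Pltp, a phospholipid transfer protein, Cd68, a lysosomal glycoprotein, and Mpeg1, a pore-forming protein of endosomes. Pltp was at 739 and 769 CPM in pDC against 62.1 and 31.5 in cDC under vehicle (4.01 ± 0.36, adjusted p = 0.00243). Cd68, often used to mark macrophages, was at 473 and 501 CPM in pDC and 222 and 196 in cDC (1.22 ± 0.17, adjusted p = 0.0109). The list thus held genes that pDC had at higher levels than cDC. With panobinostat, 0 of its genes changed in pDC or in cDC, where 0.0913% and 0.0% of all genes were called. Without pDC panobinostat replicate 2, which leaves 1 library in that group, Lyz2 differed by -2.91 on the log2 scale in pDC. Slc11a1, with 0 reads in the library left, differed by -7.85, a value whose size depends on how the fit treats 0.

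Of 18 tested partners and ligands of the TAM receptors, 2 were lower and 1 higher in pDC under vehicle, and 11 and 2 without pDC panobinostat replicate 2. Of all genes, 9.73% were called under vehicle by edgeR's quasi-likelihood test, and 36.1% without that library. Cd36, a scavenger receptor for lipids and dying cells, was at 17.6 and 15.3 CPM in pDC and 149 and 291 in cDC under vehicle (-3.74 ± 0.40, adjusted p = 0.00423). In pDC under panobinostat Cd36 stood at 140 and 161 CPM, above both pDC vehicle libraries (adjusted p = 0.0794 with all libraries), and without the library that stood apart it rose there by 3.04 ± 0.42 (adjusted p = 0.0211). Pros1, for the TAM ligand protein S, was higher in pDC than in cDC under panobinostat, at 28.1 and 59.0 against 9.02 and 7.44 CPM (2.40 ± 0.50, adjusted p = 0.0258). Elmo1, which acts in engulfment, was lower in pDC under vehicle (-1.84 ± 0.21, adjusted p = 0.0051).

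Of 21 tested complement genes, 3 were lower and 0 higher in pDC under vehicle, and 9 and 1 without pDC panobinostat replicate 2. The shares of all genes called were 9.73% with all libraries and 36.1% without that library. Cfb, for factor B of the alternative pathway, was at 0.605 and 1.35 CPM in pDC and 15.2 and 32.5 CPM in cDC (-4.60 ± 0.78, adjusted p = 0.0188). C3, the central component, was at 0.908 and 0.541 CPM in pDC and 8.71 and 10.1 CPM in cDC (-3.68 ± 0.80, adjusted p = 0.0385). Cfp, for properdin, was at 490 and 666 CPM in pDC and 527 and 434 in cDC.

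Of 28 tested genes of heme and iron handling, 1 was lower and 2 higher in pDC under vehicle, with a median of -0.05, against 6 higher and 8 lower without pDC panobinostat replicate 2. For this list and those that follow, the shares of all genes called were 9.73% with all libraries and 36.1% without that library. Tfrc, the transferrin receptor, was higher in pDC, at 275 and 207 against 56.0 and 49.7 CPM (2.19 ± 0.31, adjusted p = 0.011), as was Fth1, the ferritin heavy chain (1.71 ± 0.35, adjusted p = 0.0331). Of 16 tested scavenger receptor genes, 3 were lower and 2 higher in pDC under vehicle, and 8 and 2 of 17 without that library. Scarb1, a receptor for high-density lipoprotein, fell with panobinostat in pDC, from 165 and 161 CPM to 55.9 and 56.4 CPM (-1.54 ± 0.15, adjusted p = 0.0499). It was the only gene of the 16 lists to pass in a comparison of treatments with all libraries. Without that library it passed again (adjusted p = 0.016), and without any 1 of the pDC vehicle or cDC libraries 0 genes passed in pDC. Of 10 tested VCAM1 partners, Itgb1, the integrin β1 chain, was the 1 lower in pDC under vehicle, at 44.1 and 48.3 against 196 and 263 CPM (-2.31 ± 0.31, adjusted p = 0.00849). Of all genes, 4.71% were lower there.

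The genes whose levels were most like those of the summed C1q chains were sought over the 8 libraries, by the root mean square difference of centred log2 CPM, among 10634 genes. Crybg1 (0.54), Acp2 (0.60), E2f2 (0.61), Dhrs3 (0.62) and Olfm1 (0.65) came first, followed by Kif4, Pygl, Specc1, Myo1e and Plk1, the last at 0.71. All of these were at 0 CPM in pDC panobinostat replicate 2. Of the members outside C1q, Vcam1 ranked 17 (0.75), Spic 24 (0.77), Hmox1 151 (1.10) and Axl 320 (1.32). Over the 7 libraries without pDC panobinostat replicate 2, Olfm1 came first (0.53), and Crybg1, Dhrs3 and E2f2 were again among the first 10. Spic then ranked 43, Vcam1 71, Hmox1 460 and Axl 804. The likeness is a description over few libraries that share their 4 groups.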

How the data were processed

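Libraries of mRNA were made from total RNA of sorted cells with a NEBNext kit for low input, per the labels' protocols. The authors deposited raw read counts per Entrez gene ID. Reads were handled with bcl2fastq 2.17.1.14, FastQC 0.11.6, cutadapt 2.1, HISAT2 2.1.0 and featureCounts of Subread 2.0.0 on mm10, per the submitters' processing notes. Whether counting used strand is not given in the sources used here. Symbols were found for 25275 of 27179 IDs.

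Counts were tested in R 4.3.3 with edgeR 4.0.16 (quasi-likelihood test, TMM scaling, filterByExpr with a minimum count of 10, 1 coefficient per group over all 8 libraries, Benjamini-Hochberg over 14238 genes, threshold 0.05); a standard error is the log2 difference over the root of F. Only for the folds of Cd5l was a group with 0 reads given a floor of 3 reads. Tests and CPM values kept counts of 0. The procedure was also run on simulated counts. No simulated library was made to stand apart as pDC panobinostat replicate 2 did, so that run does not cover this feature of the data. Alternatives used RLE, upper quartile or library size scaling, other filters, DESeq2 1.42.0, limma-voom (limma 3.58.1), only the groups compared, a replicate block, and each library left out. Same-numbered libraries deviated together (correlations 0.15 to 0.49 over genes), so the numbers were taken as pairs, although the labels do not say what they share; the fit reported has no block.

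All 10 members are given. From 16 other lists, the up to 4 called genes with the smallest p per comparison and the 2 highest in CPM could be named, together with the 10 genes most like C1q. Members and lists were chosen with earlier results of these data known.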

Additional observations from a re-analysis of the deposited data

How the results depend on the processing

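With 2 pools a group and few reads per member, depth limits Mertk, Marco and all members in pDC. The values below come from alternatives to the fit with all 8 libraries. Genes called for panobinostat in pDC numbered 13, against 2 with RLE, 5 with upper quartile scaling, 68 without the low-count filter, 906 with DESeq2, 0 with limma-voom, 0 with the replicate block, 0 with only the groups compared, and 1347 with the block and without pDC panobinostat replicate 2; members called were 0, against 1 with DESeq2 and 1 with that block and omission. In cDC, DESeq2 called 15 genes, against 0. For the difference of effects, genes called were 1, against 0 with RLE, 0 with library size only, 5 without the filter, 290 with DESeq2, 0 with limma-voom, 0 with the block and 715 with the block and omission, which called 1 member. For pDC against cDC under vehicle, 1385 genes became 2861 with DESeq2, 4491 with only the groups compared and 6496 with the block and omission; 0 members became 1 without the filter, 3, 1 with limma-voom, 7 and 9. RLE moved the split of higher and lower calls from 714 and 671 to 631 and 769. Under panobinostat, 2557 genes became 4495 with DESeq2, 161 with only the groups compared and 6399 with the block and omission; 2 members became 8, 6 with limma-voom, 3 without the filter (Axl added), 1 with the block, 0 and 8. The replicate block alone changed no other call of a member. Under panobinostat, 18.0% of all genes were called in the main fit, 31.6% with DESeq2 and 24.0% with limma-voom. The shares there were 10.5% without the filter, 16.2% with the block and 1.21% with only the groups compared. Under vehicle, 9.73% of all genes were called in the main fit, 20.1% with DESeq2 and 13.9% with limma-voom. The shares there were 6.62% without the filter and 32.8% with only the groups compared. Leaving out 1 library in turn gave 0 to 8227 genes and 0 to 5 members for panobinostat in pDC, 0 and 0 in cDC, 0 to 6457 and 0 to 5 for the difference, 288 to 5531 and 0 to 6 for pDC against cDC under vehicle, and 346 to 9796 and 0 to 8 under panobinostat. Library size only moved the median of all genes from -0.14 to -0.28 in pDC and from 0.00 to -0.13 in cDC, and RLE moved it from 0.02 to -0.11 for pDC against cDC under vehicle. Directions reversed with limma-voom for Mertk (-0.88) and C1qa (-2.04) in pDC, Axl (-0.031) in cDC, and Spic (-2.21), C1qb (-1.33) and C1qa (-1.18) for the difference. Upper quartile scaling reversed Vcam1 in pDC (0.0029). The block reversed Mertk (-0.081) and C1qa (-0.35) in pDC, Axl (-0.10) in cDC and Spic (-0.50) for the difference. The block with that omission reversed Spic (0.53), Vcam1 (0.74) and C1qb (0.017) in pDC and Vcam1 (0.52) for the difference. Leaving out 1 library reversed the following, given as lowest and highest log2 values. In pDC these were C1qa (-8.57 to 1.71), C1qb (-8.07 to 0.72), C1qc (-5.48 to 3.00), Mertk (-6.43 to 2.04), Spic (-8.24 to 0.65) and Vcam1 (-10.02 to 1.18). In cDC they were Axl (-0.97 to 0.76), C1qc (-2.91 to 0.28), Cd5l (-2.76 to 0.43), Hmox1 (-0.047 to 0.94) and Mertk (-2.28 to 0.18). For the difference they were C1qa (-7.79 to 2.49), C1qb (-7.23 to 1.56), C1qc (-4.91 to 4.45), Mertk (-5.86 to 2.62), Spic (-7.94 to 0.98) and Vcam1 (-10.31 to 0.88), and for pDC against cDC under panobinostat Mertk (-7.76 to 0.65). The cause was not tested. All members but Axl had 0 reads in pDC panobinostat replicate 2. The size of a log2 value resting on that library alone therefore depends on how the fit treats 0.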
